A study of Mus musculus with 232 samples.

Results

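Lysosomal genes were followed in single mouse embryonic stem cells (ESCs) with and without miRNAs. The 35 genes were taken by symbol from a list of lysosomal genes, with no threshold on a measured value, out of 42493 genes listed for every cell. They comprised 7 proteases, 12 glycosidases and sulfatases, 7 genes of lipid handling, 7 membrane proteins, and 2 components of the vacuolar proton pump (V-ATPase). The lipid group holds hydrolases with their carriers and activators, and Grn, which encodes progranulin, was placed there too. All 35 were found by Ensembl identifier, and 33 of them averaged 5 or more counts per cell, as did 11186 genes in all. The other 2, Naglu and Arsb, are described by their values alone.

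The cells fell into 4 conditions, all grown with LIF, serum and 2i (inhibitors of MEK and GSK3) and captured on microfluidic chips, the Dgcr8-/- cells 24 h after transfection. WT cells (16 cells, V6.5) carried the wild-type genotype, and their labels do not say whether a mimic-free transfection was given. Dgcr8-/- cells lack a protein needed to process most miRNAs, and were mock-transfected without a mimic (60 cells), transfected with a miR-294 mimic (58 cells) or transfected with a let-7 mimic (48 cells). The mimic is let-7i by the sample titles, let-7b by the series description and let-7c by the study's methods, and is called let-7 here. The names of 3 miR-294-transfected cells begin with MIR_294_ and those of the others with miRNA294_. All were pooled, since their labels give the same genotype and mimic. All transfected and mock-transfected Dgcr8-/- cells share the knockout background, and the labels name no second line of either genotype. Each condition came from 1 chip, and no separate cultures are named, so condition, culture and chip cannot be told apart. Each condition was therefore treated as 1 sample, and no p-value was computed between conditions. Before deposit, the study's authors removed transfected cells in which the known targets of the mimic were not reduced.

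Lysosomes are acidic organelles that break down proteins, glycans and lipids delivered by endocytosis and autophagy. Soluble hydrolases are tagged with mannose 6-phosphate and sorted to the lysosome, membrane proteins such as LAMP1 and LAMP2 line it, and the V-ATPase acidifies its lumen. Many lysosomal genes carry the palindrome CACGTG near their start site, which is bound by TFEB, TFE3 and MITF, and TFE3 is known in mouse ESCs for its part in the exit from the naive state.

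Depth was similar across conditions, with totals of 513521 to 3979274 counts per cell and median totals between 1307481 and 1574732. The median number of genes detected ran from 7734 in WT to 8030 in let-7-transfected cells. Dgcr8 itself had a median normalized count of 57.4 in WT and 11.6 in mock cells, with a count in 54 of 60 mock cells, so the check of the genotype was only partial. ESC markers were present in every condition, with a median summed level of 5620 in WT, 5822 in mock, 5874 in miR-294-transfected and 2298 in let-7-transfected cells. Of 50 cells sequenced in 2 runs, 2 (1 WT and 1 let-7-transfected) had runs that did not resemble each other (r of 0.118 and 0.187, against at least 0.929 in the others). In addition, 4 pairs of consecutively numbered cells (3 let-7-transfected and 1 miR-294-transfected) correlated at 0.986 or more, where no other pair of cells passed 0.715, and they differed about as little as repeat runs of 1 cell. Values that these cells alter are given with and without them, or with each pair counted once. Lists used as checks were read by calls of at least 2-fold. Of 8 ESC markers, Pou5f1 was higher and Esrrb lower in mock than in WT cells (31.8% and 9.82% of all genes were). None was called after miR-294 (6.21% of all genes were higher and 19.7% lower). After let-7, Sall4 and Nanog were lower (9.28% of all genes were). All 8 had log2 ratios below 0 after let-7, with a median of -0.73 against 0.19 over all genes. The study reported no significant change across the conditions in its pluripotency markers, which include Sall4 and Nanog. Of the 9 mitochondrially encoded genes 2 were higher in mock than in WT cells, 1 was lower after miR-294, and none was called after let-7.

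Counts were normalized with DESeq size factors. The level of a gene in a condition is its summed count divided by the summed size factors, and its interval of 95% (exact Poisson) covers counting error only, not the spread over cells. A gene is called higher or lower where its level differs by at least 2-fold between 2 conditions. For the better counted members the lowest, median and highest normalized count over cells are given too. For some, the share of all pairs of cells, 1 from each condition, in which the first cell is higher is added. Pairs of equal counts, such as 2 cells with no count, are split evenly between the conditions in these shares. In sums over cells, fewer cells with a transcript and less transcript per cell cannot be told apart.

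Summed over the 35 genes, lysosomal transcripts were more abundant in Dgcr8-/- than in WT cells, and miR-294-transfected cells lay between them. In WT cells the summed level ran from 1245 to 8203 with a median of 3400. In mock cells it ran from 4416 to 66948 with a median of 8404. All 60 mock cells lay above the WT median, 32 of them lay above every WT cell, and the mock cell was the higher in 96.7% of cell pairs. The miR-294-transfected cells ran from 2392 to 13986 with a median of 5944, which was 0.71-fold the mock median and 1.75-fold the WT median. Their cell was the higher in 19.4% of pairs with mock cells and in 86.3% of pairs with WT cells. In mock cells the 5 most counted members made up 46.5% of the summed level. With the 33 better counted genes weighted equally, as a mean log2 level per cell, the miR-294-transfected cell was higher in a share of 0.411 of pairs with mock cells. That share was 0.835 in pairs with WT cells, and it was 0.859 for mock cells paired with WT cells. In let-7-transfected cells the range was 2794 to 31972 and the median 8655, close to the mock median, with the let-7-transfected cell the higher in 54.7% of pairs.

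**Figure D1:**
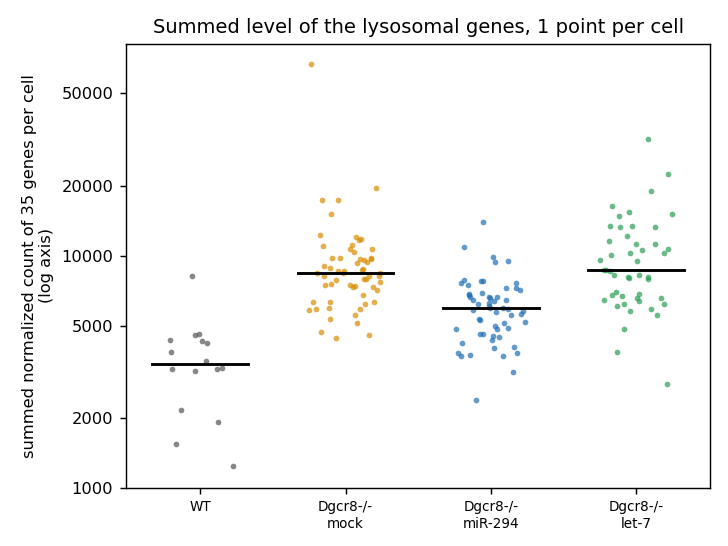
Summed normalized count of the 35 lysosomal genes in each cell (log axis), 1 point per cell, with the median of each condition as a bar. The medians are 3400 in WT, 8404 in mock, 5944 in miR-294-transfected and 8655 in let-7-transfected cells, and 1 mock cell stands at 66948.

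With each near-identical pair counted once or without these cells, the ratios of medians stayed within the spread over cells. As a share of all counts, the 35 genes took a median of 0.27% in WT and 0.565% in mock cells. The number of them with a count hardly moved with the summed level, with a median of 24 in WT cells and 23.5 in mock cells. Across cells of a condition, the summed level had a Spearman correlation with the total count of -0.05 in WT (n = 16), 0.07 in mock (n = 60), -0.08 in miR-294-transfected (n = 58) and -0.11 in let-7-transfected cells (n = 48). Without the cells that stand apart, including the highest mock cell, the medians were 3532, 8384, 5915 and 8655 in the same order. The coefficient of variation over mock cells was 83%. Without the cells that stand apart it was 46.6% in WT, 34.8% in mock, 33.3% in miR-294-transfected and 51.8% in let-7-transfected cells, so the mock cells no longer spread the most.

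That highest mock cell had 66948 normalized counts from the 35 genes, where the next mock cell had 19607. Its total count was near the middle of the mock cells, at rank 30 of 60. It held the highest mock value of 11 of the 35 genes, among them Ctsb at 17776 (next highest 2824), Ctsd at 12240 (next 1911), Ctsl at 6536 (next 1537), Grn at 6146 (next 2206) and Gusb at 5414 (next 378). The other lysosomal lists ran the same way, with the other V-ATPase subunits at 14143 against a mock median of 3059. Not all members were high in it: Manba had its lowest mock value there (1.64 against a median of 734), and Laptm4a, Glb1 and Man2b1 were among those with no count. The core pluripotency factors Pou5f1, Nanog and Sox2 were at 0 in this cell, whereas every other mock cell had at least 8.19 normalized counts of Pou5f1 and 5.23 of Nanog. The 9 mitochondrially encoded genes took 0.00539% of its counts against a median of 3.22%, and the epithelial keratins Krt8 and Krt18 stood at 5567 and 7551 against medians of 78.3 and 0. The keratins were chosen after their values were seen. A list of extraembryonic endoderm markers, described below, summed to 4260 in this cell, at rank 3 of 60 mock cells (median 1042). Of its genes, Sparc was at 3043 (median 1022), Col4a1 at 1173 (next highest 200) and Col4a2 at 44.4. Every other gene of that list, Gata4, Gata6, Sox17 and Dab2 among them, was at 0. The ESC markers Zfp42 (1625 against a median of 1322), Sall4 (1132 against 1026), Klf4 (173 against 75.4) and Tfcp2l1 (1056 against 1813) did have counts in it.

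The comparison of mock Dgcr8-/- with WT cells asks how cells without Dgcr8-dependent miRNAs differ. In each of the 5 functional groups the median log2 ratio was above that of all genes. Of the 33 genes with enough counts, 15 were at least 2-fold higher (45.5%), where 31.8% of all 11186 genes were, and 3 were at least 2-fold lower (9.09%), where 9.82% of all genes were. At a limit of 1.5-fold, 21 were higher (63.6%, with 42.5% of all genes) and 3 lower (with 18.5% of all genes). The median log2 ratio was 0.87 over the 33 genes and 0.36 over all genes, and 27 of the 33 were above 0. With TMM factors or library size in place of the size factors the median of all genes moved to 0.21 and 0.18, and 13 members were called higher with each (39.4%, with 28.8% and 28.2% of all genes). Among genes averaging 100 counts or more per cell, a limit chosen after the values were seen, 12 of 18 members were called higher, with 16.7% of the 3238 genes.

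**Figure D2:**
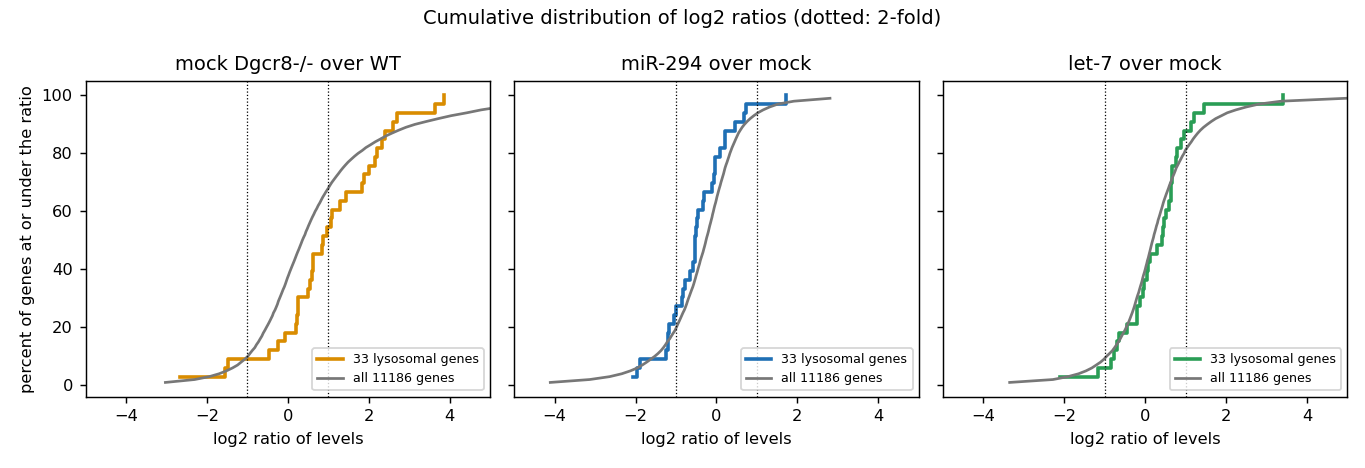
Cumulative distribution of log2 ratios for the 33 lysosomal genes (coloured steps) and for all 11186 genes (grey line) in the 3 comparisons. The medians of lysosomal against all genes are 0.87 and 0.36 (mock over WT), -0.53 and -0.26 (miR-294 over mock) and 0.41 and 0.19 (let-7 over mock).

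Among the 7 proteases, 4 were called higher in mock cells and none lower. Ctsa (chr2:164832873-164841032, GRCm38), the carboxypeptidase that also shields beta-galactosidase and neuraminidase, ran from 0 to 688 with a median of 42.1 in WT cells. In mock cells it ran from 5.46 to 3087 with a median of 724. Of 60 mock cells, 32 lay above every WT cell, and no WT cell reached the mock median. The levels were 877 (interval 870 to 884) and 136 (130 to 141), a log2 ratio of 2.69, and the mock cell was the higher in 92.5% of pairs.

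Ctsb (chr14:63122462-63145923), a cysteine protease, had a median of 125 in WT cells (range 0 to 438) and of 608 in mock cells (range 0 to 17776). Its log2 ratio was 2.33, and 2.04 without the highest mock cell, which held 30.8% of its normalized counts in that condition. Even so, 41 of 60 mock cells lay above every WT cell. Ctsd, the major aspartic protease, had medians of 8.6 in WT (0 to 602) and 341 in mock cells (0 to 12240), with a log2 ratio of 2.01 that was 1.68 without that cell. Tpp1, a tripeptidyl peptidase, had medians of 34 and 225 and a log2 ratio of 1.30. The other 3 proteases were not called: Ctsl had a log2 ratio of 0.22 (-0.16 without the highest mock cell), Ctsz of 0.26 (between -0.07 and 1.37 with any 1 cell left out) and Ctsc of -0.24 (between -0.44 and 0.13). For Ctsc, the activator of granule serine proteases, the mock cell was the higher in only 34.2% of pairs, with ties split evenly.

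The glycosidases and sulfatases had the lowest median log2 ratio of the 5 groups, at 0.56 over 10 genes, with 2 called higher and 1 called lower. Man2b1, an alpha-mannosidase, had medians of 1.75 in WT (0 to 143) and 9.34 in mock cells (0 to 1103), and levels of 19.9 and 71, a log2 ratio of 1.84. Gusb, the beta-glucuronidase, had levels of 5.78 in WT and 84 in mock cells, a log2 ratio of 3.86. The highest mock cell held 72.3% of its normalized counts, and without that cell the ratio was 2.70. Gusb was counted in 5 of 16 WT and 32 of 60 mock cells.

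Neu1, the sialidase that works in a complex with CTSA, was called lower with a log2 ratio of -1.48, but was counted in only 4 of 16 WT and 8 of 60 mock cells. Leaving out 1 WT cell brought it to 0.036 and leaving out the highest mock cell to -2.36. Manba, the beta-mannosidase and the most counted gene of the group, had medians of 300 in WT (0 to 1453) and 734 in mock cells (1.64 to 1657), but its log2 ratio of 0.63 was under the 2-fold limit. It was 1.13 without the WT cell whose 2 runs differ. The remaining ratios were 0.97 for Hexa, 0.85 for Gaa, 0.49 for Gla, 0.25 for Glb1, 0.19 for Fuca1 and -0.46 for Arsa. Most of these moved with 1 WT cell each, without which Hexa was at 1.58, Gla at 1.32, Fuca1 at 1.05 and Arsa at 0.78, and Gaa too passed 2-fold, whereas Glb1 stayed between 0.041 and 0.53. Naglu was counted in 1 WT and 1 mock cell, and Arsb in 4 mock cells and 0 of 16 WT cells, which allows a share of up to 18.8%.

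Lipid handling had the highest median log2 ratio of the groups, at 1.88, with 5 of 7 genes called higher and none lower. This rank depends on the placement of Grn in the group. Without Grn the V-ATPase members, at 1.61, would have the highest median. Asah1 (chr8:41340197-41374773), the acid ceramidase, had a median of 257 in WT cells (32.7 to 576) and 748 in mock cells (16.2 to 3023). The levels of 253 and 930 gave a log2 ratio of 1.88, with leave-one-out values between 1.80 and 2.01, and 36 of 60 mock cells lay above every WT cell. Grn (chr11:102430315-102437048), which encodes progranulin, had a median of 15.7 in WT cells (0 to 650) and 435 in mock cells (3.03 to 6146), a log2 ratio of 2.59, or 2.45 without the highest mock cell. Of 60 mock cells, 59 lay above the WT median.

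Ppt1, a palmitoyl-protein thioesterase, had medians of 5.05 in WT (0 to 235) and 150 in mock cells (0 to 1620), with a log2 ratio of 2.40. Psap, the precursor of the saposins that present lipids to hydrolases, had medians of 1.33 in WT (0 to 18.1) and 15.4 in mock cells (0 to 342). Its log2 ratio of 3.64 was the largest of the members apart from Gusb, and 27 of 60 mock cells lay above every WT cell. Npc2, the soluble cholesterol carrier, had medians of 287 (0.934 to 494) and 508 (32.8 to 1484) and a log2 ratio of 1.09, which was under the limit without the WT cell whose runs differ (0.95). Its membrane partner Npc1 differed by -0.07, or 0.96 without 1 WT cell. Lipa, the acid lipase, was counted in 2 WT and 4 mock cells and had a ratio of 0.62, which was -2.15 without the mock cell that held 82.6% of its normalized counts and 2.78 without 1 WT cell.

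Of the membrane proteins, Lamp2 and Cd63 were higher in mock cells, and Laptm4b and Mcoln1 were lower. Lamp2 (chrX:38401357-38456454), a structural glycoprotein with a part in chaperone-mediated autophagy, had a median of 75.8 in WT cells (0.392 to 514) and 444 in mock cells (11.3 to 1982), with 25 of 60 mock cells above every WT cell. Its levels of 121 (interval 116 to 126) and 558 (553 to 564) gave a log2 ratio of 2.21, and 2.18 without the highest mock cell. Cd63 (chr10:128900989-128912822), a tetraspanin of late endosomes and exosomes, had medians of 278 (6.95 to 2445) and 887 (205 to 4479) and a log2 ratio of 1.44. In 91.3% of pairs the mock cell had more Cd63, although only 1 mock cell passed the highest WT cell, and that WT cell held 39.9% of the normalized counts of its condition.

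Laptm4b (chr15:34238028-34284302), a small transmembrane protein of late endosomes, went the other way. It was counted in 11 of 16 WT cells (median 6.25, highest 192) and in 19 of 60 mock cells (median 0, highest 113), with a log2 ratio of -2.65. The ratio stayed between -2.95 and -2.23 when any single cell was left out. Mcoln1, the mucolipin calcium channel, had a log2 ratio of -1.55 but was counted in 4 WT and 10 mock cells, and without 1 WT cell the value was 0.54. Lamp1 and Laptm4a had ratios of 0.87 and 0.55, the latter 1.11 without 1 WT cell. Scarb2 had 0.60, but the highest mock cell held 56.7% of its normalized counts, and the ratio was -0.15 without that cell and 1.95 without 1 WT cell.

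Both V-ATPase members were called higher. Atp6ap1, an accessory subunit, had medians of 3.47 in WT (0 to 284) and 116 in mock cells (0 to 953) and a log2 ratio of 2.16. Atp6v0c, the proton-conducting ring subunit, had medians of 342 (102 to 909) and 627 (150 to 2736) and a log2 ratio of 1.06, which was 0.97 without the WT cell whose runs differ. Its 2 conditions overlapped widely, with 16 of 60 mock cells above every WT cell.

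**Figure D3:**
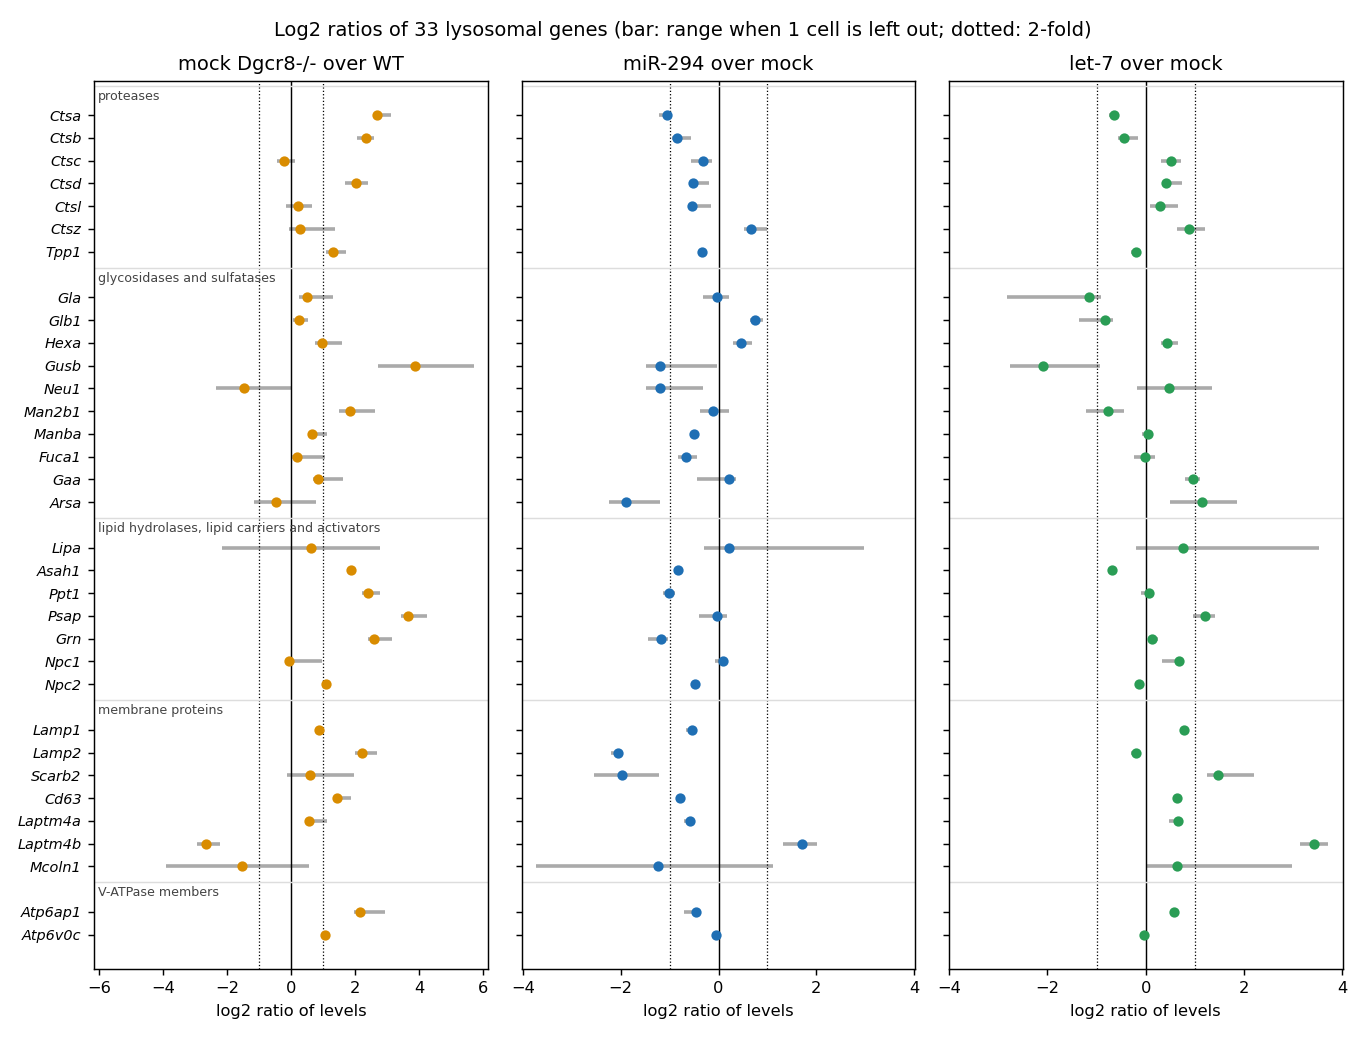
Log2 ratios of levels (horizontal axes) of the 33 lysosomal genes, by functional group, in the 3 comparisons. Grey bars span the values with each single cell left out, dotted lines mark 2-fold. Ctsa, Asah1, Grn and Lamp2 have short bars above 2-fold in mock over WT, and Gusb, Neu1, Lipa and Mcoln1 have the long bars of genes carried by few cells.

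Markers of other cell types were read beside these values. The extraembryonic endoderm list had median sums of 248 in WT (15.3 to 787), 1042 in mock (151 to 7565), 558 in miR-294-transfected (42.1 to 1838) and 2487 in let-7-transfected cells (205 to 7104), so it moved with the lysosomal genes between WT, mock and miR-294-transfected cells. Most of it was Sparc, with levels of 237, 1213, 544 and 2540, while Gata6, Sox17 and Ttr had no count in any condition, and 7, 5, 4 and 4 of the 12 genes were at 0 in the same order. Across mock cells (n = 60) the summed lysosomal level and this list had a Spearman correlation of 0.27, across miR-294-transfected cells (n = 58) of 0.43, across let-7-transfected cells (n = 48) of 0.46 and across WT cells (n = 16) of 0.19. Both sums come from the same library of each cell and share its depth. The fibroblast list had median sums of 370 (87.5 to 2689), 665 (54.5 to 3035), 487 (48.2 to 1800) and 962 (25.9 to 2438), which were almost entirely Fn1, and 6, 5, 4 and 5 of its 8 genes were at 0, among them Col1a2, Col3a1, Lum and Postn in every condition. Of the 6 endoderm markers with enough counts, 4 were called higher in mock than in WT cells (31.8% of all genes), 4 lower after miR-294 (19.7% of all genes) and 3 higher after let-7 (18.8% of all genes), while Fn1, the 1 such fibroblast marker, was not called. Of the called markers only Sparc was counted in every cell. In mock cells, Gata4 was counted in 1 of 60, Lama1 and Col4a2 in 10 each, Col4a1 in 15 and Lrp2 in 21. A single mock cell each held 66.8% of the counts of Col4a2 and 50.5% of those of Col4a1. For Col4a1 it was the mock cell with the highest summed lysosomal level. In let-7-transfected cells Gata4 was counted in 7 of 48. The part of either list in the lysosomal values was not tested.

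The next comparison asks how Dgcr8-/- cells differ once miR-294, of the dominant miRNA family of mouse ESCs, is added back. Lysosomal genes with a lower level in miR-294-transfected than in mock cells outnumbered those with a higher one, as they did among all genes. Of the 33 genes, 9 were at least 2-fold lower (27.3%), with 19.7% of all genes, and 1 was at least 2-fold higher (3.03%), with 6.21% of all genes. At 1.5-fold, 14 were lower (42.4%, with 33.9% of all genes) and 3 higher (with 12% of all genes). The median log2 ratio was -0.53 over the members and -0.26 over all genes, and 26 of 33 were below 0. By group, 1 of 7 proteases, 3 of 10 glycosidases and sulfatases and 3 of 7 membrane proteins were called lower. So were 2 of 7 genes of the lipid group (Ppt1 and Grn), and neither V-ATPase member was called. The median of all genes was -0.13 with TMM factors and -0.06 with library size. The count of lower members was 7 with TMM factors (21.2%, with 16.7% of all genes), 5 with library size (15.2%, with 15.3%) and 6 without the highest mock cell (18.2%, with 19%), so it lay near or under the share of all genes in the last 2. It was 4 of 18 among genes averaging 100 counts or more, with 7.88% of the 3238 genes.

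The seeds of the mimics, bases 2 to 8 of the mature miRNA, are given in capitals in the RefSeq sequences (GRCm38.p6), because they define which sites in a transcript can pair. The 3 let-7 names in the records share 1 seed, so the search for sites does not depend on which mimic was used.
miR-294-3p: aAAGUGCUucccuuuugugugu
let-7c-5p: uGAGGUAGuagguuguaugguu
let-7b-5p: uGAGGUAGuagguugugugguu
let-7i-5p: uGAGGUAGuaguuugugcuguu

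A match to the miR-294 seed (AGCACTT) stood in an annotated 3' UTR of 8 of the 35 genes, namely Ctsa, Ctsb, Tpp1, Gla, Gusb, Neu1, Arsb and Lamp2. Among the 33 genes with enough counts the share was 21.2%, and among the 10299 such genes with an annotated 3' UTR it was 19.2%. The sites of the 3 best counted genes are shown as windows of 30 bases of the transcript with the match in capitals. Their genomic positions (GRCm38) are chrX:38405352-38405358 and chrX:38420726-38420732 on the minus strand for Lamp2, chr2:164839423-164839429 on the plus strand for Ctsa and chr14:63143253-63143259 on the plus strand for Ctsb. Sites were pooled over the annotated transcripts of a gene, so those of Lamp2 need not lie in the same transcript. They are numbered by genomic coordinate.
Lamp2 first site: tcagtgtatgaAGCACTTtgctccttaaga
Lamp2 second site: ttgactgctacAGCACTTactaatttggct
Ctsa: aggaccaagtgAGCACTTtgttccggccat
Ctsb: tcacacctcggAGCACTTcctcctgcttag

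Lamp2 had the lowest ratio of all members. Its median was 84.6 in miR-294-transfected cells (0 to 684) against 444 in mock cells (11.3 to 1982). Of 58 miR-294-transfected cells, 14 lay below every mock cell and 4 above the mock median. The levels of 134 (interval 132 to 137) and 558 (553 to 564) gave a log2 ratio of -2.05, between -2.20 and -1.97 with any 1 cell left out, and the miR-294-transfected cell was the higher in 15.1% of pairs. Lamp2 was also the only member on the study's earlier bulk list of 495 miR-294 targets, and the deposited cells had been kept for a reduction of that list as a whole, so its difference is not independent of how the cells were chosen.

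Over the 7 members with a site and enough counts, the median log2 ratio was -1.05, against -0.49 over the 26 without one. Without the highest mock cell these medians were -0.31 and -0.35, so their order turned on 1 cell. Over all genes with an annotated 3' UTR the medians were -0.47 for 1977 genes with a site and -0.20 for 8322 without. The other ratios of genes with a site were -1.05 for Ctsa, -0.86 for Ctsb, -0.33 for Tpp1, -0.04 for Gla, -1.20 for Gusb and -1.19 for Neu1. A match is a description of these letters, and the annotation used is later than that of the deposited counts.

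Ctsa had a median of 322 in miR-294-transfected cells (0 to 2233) against 724 in mock cells, and 50 of 60 mock cells lay above the median of the miR-294-transfected cells. Its ratio of -1.05 was -0.998 without 1 mock cell, and it was -0.92 with TMM factors and -0.85 with library size. Ctsb had a median of 352 (48 to 1803) against 608, with a log2 ratio of -0.86 that was -0.57 without the highest mock cell. The aspartic protease Ctsd had a median of 304 (11.7 to 1401) against 341 and a log2 ratio of -0.53, or -0.20 without that cell.

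Grn was lower too, with a median of 176 (0 to 1828) against 435 and a log2 ratio of -1.17 (-1.04 without the highest mock cell, -0.98 with library size). For Ppt1 the median of 61.2 (0 to 904) stood against 150, with a log2 ratio of -1.01, which was -0.96 without that cell. Asah1 fell short of the limit at -0.82, with a median of 460 (13.1 to 2129) against 748. Cd63 was lower in most cells without reaching 2-fold, at a median of 465 (150 to 1674) against 887 and a log2 ratio of -0.78. In 56 of 60 mock cells it was above the median of the miR-294-transfected cells. Npc2 at -0.47, Manba at -0.50, Lamp1 at -0.54 and Atp6ap1 at -0.46 lay in the same direction.

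The other calls in this comparison rested on genes counted in few cells. Scarb2, the sorting receptor of glucocerebrosidase, was counted in 16 of 58 miR-294-transfected (highest 145) and 15 of 60 mock cells (highest 951). Its log2 ratio was -1.97, or -1.23 without the highest mock cell, while the miR-294-transfected cell was the higher in a share of 0.498 of pairs. Arsa, a sulfatase, was counted in 11 and 15 cells and had levels of 2.39 and 8.89, a log2 ratio of -1.90 with leave-one-out values of -2.24 to -1.19. Gusb (-1.20) and Neu1 (-1.19) were at -0.04 and -0.31 without the highest mock cell. With ties split evenly, the miR-294-transfected cell was the higher in 51.2% and 54.5% of pairs. Neu1 was counted in only 13 of 58 miR-294-transfected and 8 of 60 mock cells, so many of its pairs were ties. Mcoln1, at -1.24, was counted in 4 and 10 cells and was at 1.12 without 1 mock cell.

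Some members did not follow. Atp6v0c was nearly level, with a median of 698 (284 to 1482) against 627 and a log2 ratio of -0.05 (interval -0.07 to -0.03). Psap and Man2b1 had ratios of -0.04 and -0.12. Glb1, the beta-galactosidase, was higher, with a median of 104 (0 to 665) against 18.1 and a log2 ratio of 0.74, and so was Ctsz at 0.67, with a median of 31.4 (0 to 475) against 0. Laptm4b was the 1 gene called higher, with a count in 25 of 58 cells (highest 134) against 19 of 60, levels of 15.7 and 4.79 and a log2 ratio of 1.71. Hexa, at 0.46, stayed above 0 with any 1 cell left out. Gaa at 0.21, Lipa at 0.21 and Npc1 at 0.08 did not, and were at -0.45, -0.30 and -0.07 without 1 miR-294-transfected cell each.

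**Figure D4:**
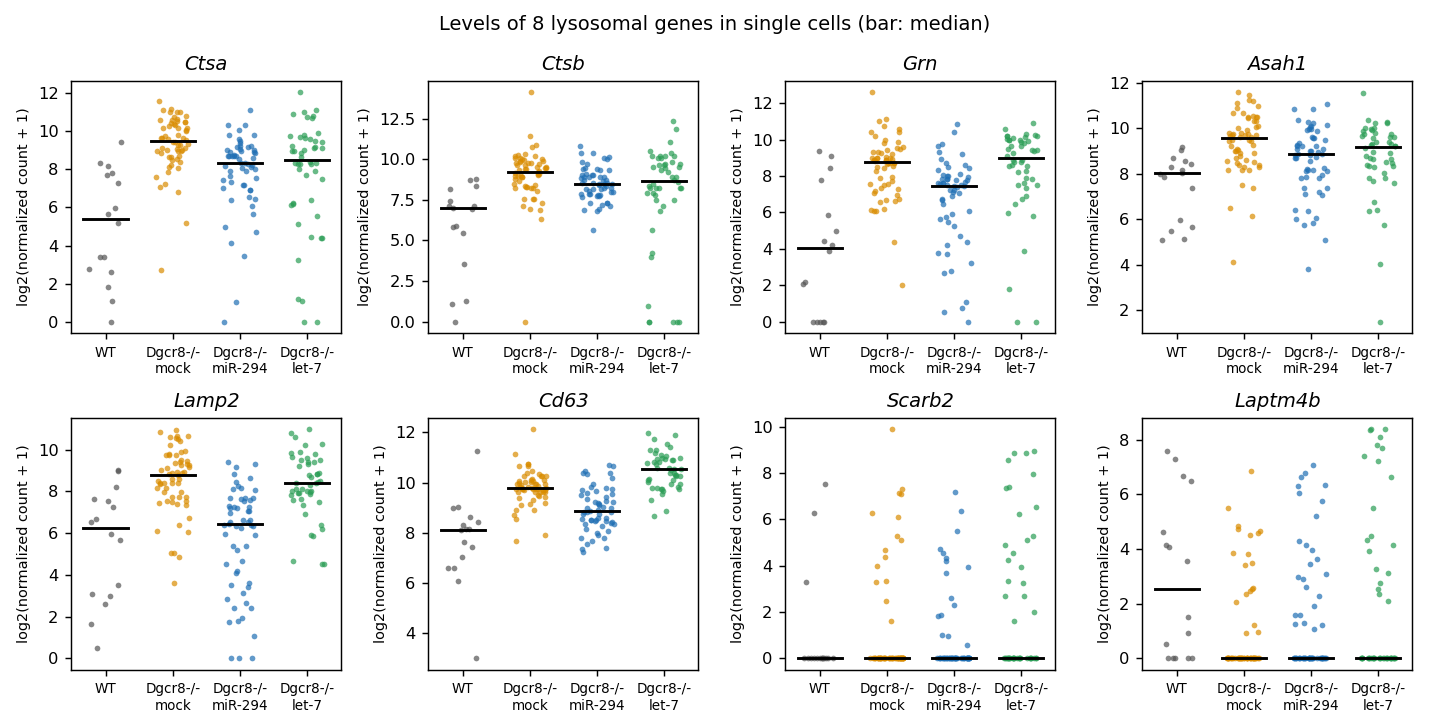
Log2(normalized count + 1) of 8 lysosomal genes in each cell of the 4 conditions, 1 point per cell, with the median as a bar. Lamp2 is low in WT and miR-294-transfected cells (medians 75.8 and 84.6 normalized counts) and high in mock and let-7-transfected cells (444 and 337), while Scarb2 and Laptm4b have no count in most mock cells.

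let-7, a family that in the body rises as cells differentiate, gave a mixed pattern. Of the 33 genes, 4 (5 with near-identical pairs counted once, with Gaa at 1.03) were at least 2-fold higher than in mock cells (12.1%), with 18.8% of all genes, and 2 were at least 2-fold lower (6.06%), with 9.28% of all genes. At 1.5-fold, 12 were higher (36.4%, with 31.8% of all genes) and 6 lower (18.2%, with 16.8% of all genes). These shares were near or under those of all genes. The median log2 ratio was 0.41 over the members and 0.19 over all genes, and 21 of 33 were above 0. Among genes averaging 100 counts or more, 0 of 18 members were called in either direction, with 5.53% of the 3238 genes higher and 4.76% lower. This comparison and that of miR-294 share the mock cells as their reference.

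The 7 membrane proteins had a median log2 ratio of 0.65 after let-7, with 2 called higher and none lower. Cd63 had a median of 1475 (405 to 4063) against 887 (205 to 4479) in mock cells, the let-7-transfected cell was the higher in 76.3% of pairs, and the log2 ratio was 0.63. Only 6 of 60 mock cells lay above the median of the let-7-transfected cells. Lamp1 had a median of 436 (6.74 to 2709) against 219 (3.01 to 1485) and a log2 ratio of 0.79. Laptm4a was at 0.65. Lamp2, which was low after miR-294, had a median of 337 (21.9 to 2015) against 444 and a log2 ratio of -0.19.

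Laptm4b had the highest ratio, with levels of 51.2 (interval 49.3 to 53.3) and 4.79 (4.29 to 5.33) and a log2 ratio of 3.42. It was counted in 20 of 48 let-7-transfected cells and 8 of these lay above every mock cell, while the median was 0 in both conditions. Without any single cell the ratio stayed between 3.15 and 3.71. Scarb2 was counted in 21 of 48 cells (highest 500) and had a log2 ratio of 1.47, which was 2.21 without the highest mock cell. Psap had a median of 40.8 (0 to 362) against 15.4 and a log2 ratio of 1.21, or 0.97 without 1 let-7-transfected cell. Arsa, at 1.14, was at 0.50 without 1 let-7-transfected cell, which held 39.2% of the normalized counts.

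Most of the best counted hydrolases were not higher. The proteases had no call in either direction. Ctsa had a median of 367 (0 to 4230) against 724 in mock cells and a log2 ratio of -0.64, and Asah1 a median of 572 (1.83 to 2954) against 748 and a log2 ratio of -0.69. Ctsb had a median of 405 (0 to 5295) against 608, with a log2 ratio of -0.45, or -0.17 without the highest mock cell. Grn (0.12), Npc2 (-0.13), Ppt1 (0.06), Manba (0.04), Tpp1 (-0.20) and Atp6v0c (-0.04) were close to level. Ctsd, with a median of 542 (0 to 2334) against 341, had a log2 ratio of 0.41, and 0.73 without the highest mock cell.

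The low end was held by glycosidases. Gusb was called lower at -2.09, but was at -0.93 without the highest mock cell. Gla, the alpha-galactosidase, was counted in 17 of 48 let-7-transfected and 29 of 60 mock cells, with levels of 10.9 and 24.2 and a log2 ratio of -1.15, which was -0.91 without 1 mock cell and -2.83 without the let-7-transfected cell that held 62.4% of its normalized counts. Glb1 had a median of 0 (highest 539) against 18.1, was counted in 21 of 48 cells against 43 of 60, and had a log2 ratio of -0.84. Man2b1 was at -0.77. Without 1 let-7-transfected cell each, Glb1 was at -1.36 and Man2b1 at -1.21.

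A match to the let-7 seed (CTACCTC) stood in a 3' UTR of 6 members, all with enough counts (Ctsb, Ctsc, Gla, Gusb, Gaa and Npc2). This is 18.2% of the 33, with 11% of the 10299 genes. Their ratios after let-7 ran from -2.09 (Gusb) to 0.96 (Gaa), with a median of -0.29, against 0.44 over the 27 members without a match (-0.15 and 0.64 without the highest mock cell). Over all genes the medians were -0.02 for 1137 genes with a match and 0.20 for 9162 without. No member was on the earlier bulk list of 171 let-7c targets. The site of Gla, at chrX:134588273-134588279 on the minus strand, and that of Gaa, at chr11:119273094-119273100 on the plus strand, are shown as examples with a low and a high ratio.
Gla: aatacaagtctCTACCTCagggggtggggg
Gaa: agcaaacctgtCTACCTCattccaaaccct

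Levels can be compared between genes only per length, for which the FPKM values deposited by the authors were averaged over runs and then cells. Cd63 and Atp6v0c were the first and second of the members in every condition. Cd63 had a mean FPKM of 358 in WT, 838 in mock, 576 in miR-294-transfected and 1271 in let-7-transfected cells, and Atp6v0c of 273, 484, 549 and 454. In mock cells Asah1 (272 FPKM), Ctsa (264), Grn (174), Ctsd (171) and Manba (156) followed. In WT cells Manba (100 FPKM) and Ctsl (96.4) had ranks 3 and 4, while Ctsa had rank 9 (42.5) and Ctsb rank 16 (24.6). Lamp2 moved from rank 8 in mock cells (131 FPKM) to rank 18 in miR-294-transfected cells (41.3). Arsb and Naglu stayed at or under 2.11 FPKM in all conditions. Of the 35 genes, 28 in WT, 30 in mock, 31 in miR-294-transfected and 31 in let-7-transfected cells were above the median of all genes listed above 0.

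How many cells had a count varied between genes. The median share over the 35 genes was 75% in WT, 71.7% in mock, 79.3% in miR-294-transfected and 85.4% in let-7-transfected cells, and 62.5%, 70%, 74.1% and 81.3% with every cell thinned to 500000 counts, for which no cell was too shallow. Asah1, Npc2, Lamp1, Cd63 and Atp6v0c were counted in every cell of all conditions. Naglu was counted in 1 of 16 WT, 1 of 60 mock, 2 of 58 miR-294-transfected and 6 of 48 let-7-transfected cells. Arsb had a count in 0 of 58 miR-294-transfected cells, which allows a share of up to 5.17%, and in 0 of 48 let-7-transfected cells, which allows up to 6.25%. These limits cover only the chance of which cells were sampled, and not whether a transcript present in a cell was counted.

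Within a condition, the better counted members varied together from cell to cell to a small degree. For members with a median of at least 20 normalized counts, the median Spearman correlation over pairs of genes was 0.16 in mock cells (15 genes, 105 pairs, n = 60 cells), 0.06 in miR-294-transfected cells (19 genes, n = 58), 0.15 in let-7-transfected cells (19 genes, n = 48) and 0.06 in WT cells (13 genes, n = 16). Over all genes past the same limit the medians were 0.01 in each condition. Pairs above 0 made up 79% of the mock pairs (52.6% over all genes), 71.9% of those in miR-294-transfected cells (53.4%) 78.9% of those in let-7-transfected cells (52.5%) and 59% of those in WT cells (50.7%). The closest pair in mock cells was Ctsa with Grn at 0.56. In let-7-transfected cells it was Ctsb with Cd63 at 0.58, followed by Ctsa with Ctsd at 0.56, and in miR-294-transfected cells Cd63 with Atp6ap1 at 0.49. The genes share each cell's library and its depth, and the mean log2 level of the members correlated with the number of genes detected at 0.43 in mock, 0.35 in miR-294-transfected and 0.52 in let-7-transfected cells, so these values are a description only. Without the near-identical cells and those with differing runs, the medians were 0.07 in WT, 0.16 in mock, 0.06 in miR-294-transfected and 0.14 in let-7-transfected cells.

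**Figure D5:**
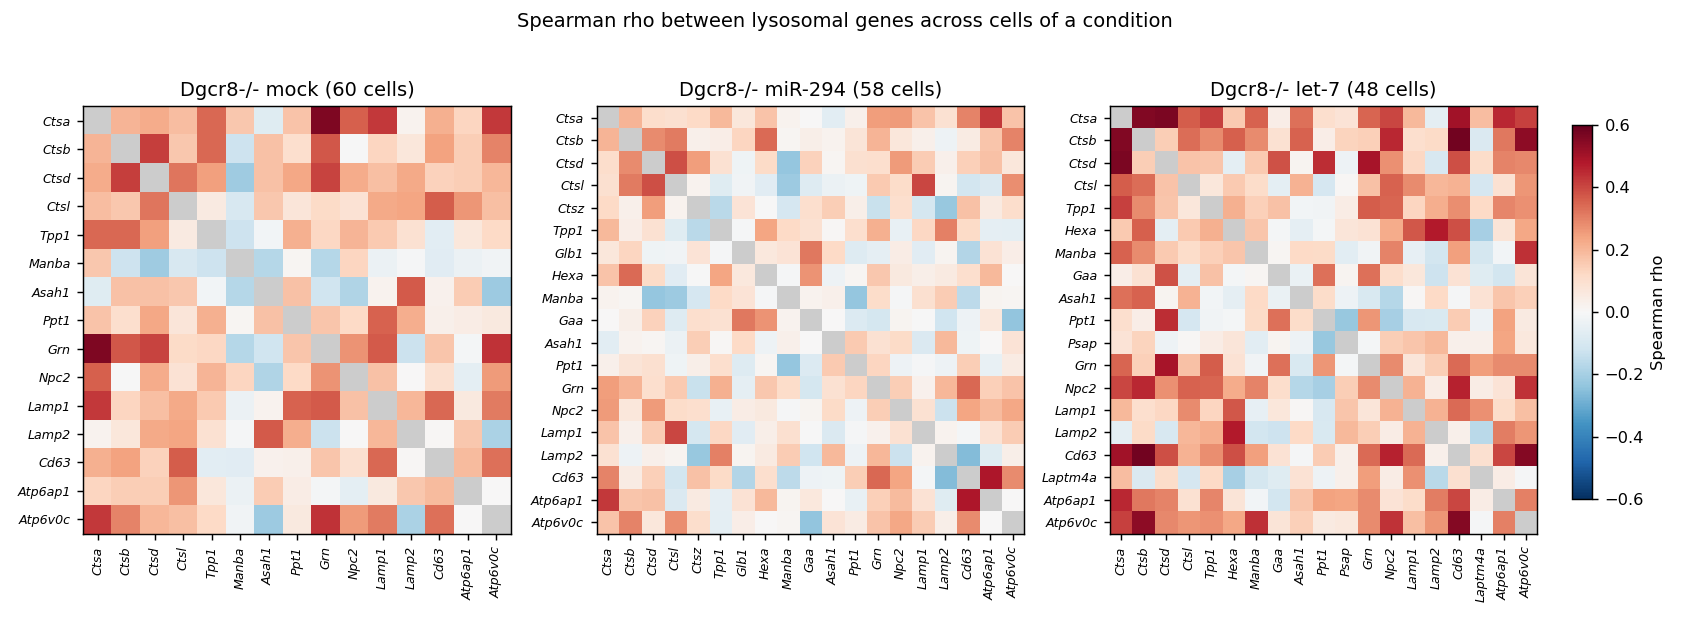
Spearman correlation across cells for pairs of lysosomal genes with a median of at least 20 normalized counts, in mock, miR-294-transfected and let-7-transfected cells (colour scale from -0.6 to 0.6, diagonal grey). The closest pair is Ctsa with Grn in mock cells (0.56), Cd63 with Atp6ap1 in miR-294-transfected cells (0.49) and Ctsb with Cd63 in let-7-transfected cells (0.58).

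Wider lists of the pathway were read in the same way, as counts beside all genes. Over all genes, 31.8% were higher and 9.82% lower in mock than in WT cells (median log2 ratio 0.36), 6.21% higher and 19.7% lower after miR-294 (-0.26), and 18.8% higher and 9.28% lower after let-7 (0.19). The lists were, like the members, drawn up with earlier results of these data known. Their counts are given with the highest mock cell only. That cell had the highest mock sum of each of these lists, such as 9251 for the other hydrolases against a mock median of 2007. Of 26 other lysosomal hydrolases, 22 had enough counts, and 15 were called higher in mock than in WT cells and none lower, with a median log2 ratio of 1.57 that takes genes at 0 at the limit of 3 counts over the condition. Among them were Ctso (levels of 15 and 0, at least 92.6-fold higher, but counted in only 7 of 60 mock and 0 of 16 WT cells, with 46.1% of the mock counts in 1 cell) and Galns (21.2 and 0.324, counted in 12 of 60 mock and 1 of 16 WT cells). After miR-294, 8 of the 22 were lower and none higher, with a median of -0.76, led by Ctso (0.0645 against 15, counted in 2 of 58 and 7 of 60 cells), Aga (9.84 against 44.9) and Scpep1 (212 against 906). Scpep1, a serine carboxypeptidase, is on the bulk miR-294 list. After let-7, 6 were lower and 1 higher, with a median of -0.16. Hyal2, a hyaluronidase, was at 7.92 against 139, Smpd1 at 2.77 against 10.1 and Idua at 5.05 against 17.1. Hyal2 was counted in 17 of 48 let-7-transfected and 47 of 60 mock cells. Smpd1 (10 of 48 and 12 of 60) and Idua (9 of 48 and 13 of 60) were counted in few cells. The let-7-transfected cell was the higher in a share of 0.188 of pairs for Hyal2, 0.494 for Smpd1 and 0.479 for Idua.

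Among 13 of 16 other lysosomal membrane proteins and transporters, 5 were higher and 1 lower in mock cells. The largest differences were those of Slc38a9, Slc17a5 and Cd68, with log2 ratios of 3.80, 3.70 and 2.42. In WT cells these were counted in 2, 6 and 6 of 16, with 88.9%, 80% and 75.1% of the counts in 1 cell each. Slc38a9 was counted in 13 of 60 mock cells. After miR-294, 7 were lower and none higher, with a median of -1.05, led by Mfsd8 (-1.75), Ostm1 (-1.63) and Slc17a5 (-1.53). Mfsd8 was counted in only 5 of 58 miR-294-transfected and 9 of 60 mock cells, with 89.6% and 85.6% of the counts in 1 cell each. After let-7, 3 were higher and 1 lower, with Slc38a9 at 1.54, Slc17a5 at 1.35 and Tmem192 at 1.34. Of 15 other V-ATPase subunits, 4 were higher in mock cells, with Atp6v0a1 at 1.92, Tcirg1 at 1.72 and Atp6v0e at 1.71. After miR-294, 1 was higher (Tcirg1, 1.62) and 2 lower (Atp6v0a1, -1.18, and Atp6v1h, -1.05). After let-7, 2 were higher (Tcirg1, 2.64, and Atp6v0a2, 1.72) and 1 lower (Atp6v1b2, -1.28). For Tcirg1 the first cell was the higher in shares of 0.502, 0.522 and 0.661 of pairs, in the order of these comparisons. A single cell held 31.8% of its counts after miR-294 and 31.6% after let-7.

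The TFE factors and the Rag, Lamtor and folliculin genes that control them at the lysosome had 9 of 16 called higher and none lower in mock cells, with a median of 1.02. Tfeb had a level of 4.57 in mock and 0 in WT cells (at least 28.2-fold higher, but counted in only 6 of 60 mock and 0 of 16 WT cells, with 57.3% of the mock counts in 1 cell), Lamtor3 a log2 ratio of 2.32 and Rragd of 1.49. After miR-294, 3 were lower and none higher, namely Rragd (-1.93), Mitf (-1.23) and Fnip2 (-1.22). After let-7, Tfeb (1.40) and Fnip1 (1.38) were higher and Mitf was lower (-1.43). For the genes of mannose phosphate tagging and sorting, 3 of 16 were higher and 1 lower in mock cells, at a median of 0.34 against 0.36 over all genes. Gga1 was at 4.94 (counted in 26 of 60 mock and 3 of 16 WT cells) and Nagpa at 2.26 (counted in 15 mock and 4 WT cells). Sort1 was at 1.69 (with levels of 0.698 and 0.216, counted in 3 mock and 2 WT cells), and the lower one, Gga3, named after its values were seen, at -1.64. After miR-294 only Vps26a (-1.16) was called. After let-7 Sort1 (4.59, at levels of 16.8 and 0.698), Ap1m1 (-1.46) and Nagpa (1.37) had the largest of 4 calls. Sort1 was counted in 12 of 48 let-7-transfected cells, with 43.7% of those counts in 1 cell. In the autophagy list, with 15 of 16 genes counted well enough, 1 was called in mock cells (Atg3, 1.26). Atg3 was counted in 31 of 60 mock cells but in only 1 of 16 WT cells. After let-7, 5 were higher and none lower, with Optn at 2.25, Gabarapl1 at 2.19 and Sqstm1, a cargo receptor, at 2.11. Gabarapl1 was counted in 17 of 48 let-7-transfected and 13 of 60 mock cells. After miR-294, Wipi2 was higher (1.44) and Becn1 (-1.39) and Gabarap (-1.34) were lower.

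The CACGTG palindrome was sought in the promoters of the members. A RefSeq promoter window of 300 bases (250 before and 50 after the start, GRCm38.p6) was given for 31 of the 35 genes. Of these, 10 held CACGTG (32.3%), with 8.09% of 27025 gene symbols, and 4 held the longer TCACGTGA, which contains it (12.9%, with 1.12%). The 27025 symbols were not limited to genes with enough counts, unlike the 10299 genes used for sites in 3' UTRs. Both are their own reverse complement, so both strands were searched at once. The 10 were Ctsa, Ctsd, Ctsl, Gla, Glb1, Naglu, Gaa, Arsa, Lamp1 and Mcoln1, of which Ctsa and Ctsd were called higher in mock than in WT cells and Mcoln1 lower. The windows of 30 bases around the longer motif (in capitals) are shown for the 4 genes that hold it, at chr2:164833749-164833778 and chr2:164833766-164833795 for Ctsa, chr7:142387908-142387937 for Ctsd, chrX:134601182-134601211 and chrX:134601215-134601244 for Gla and chr8:3500462-3500491 for Mcoln1, in the direction of the gene.
Ctsa first: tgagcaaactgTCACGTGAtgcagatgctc
Ctsa second: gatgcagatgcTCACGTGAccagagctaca
Ctsd: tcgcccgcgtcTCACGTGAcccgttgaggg
Gla first: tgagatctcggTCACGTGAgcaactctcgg
Gla second: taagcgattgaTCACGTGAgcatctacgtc
Mcoln1: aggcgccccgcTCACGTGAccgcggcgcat

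Counts of a few members may include reads of other genes that share sequence with them. Of all stretches of 31 bases in their annotated transcripts, 33.2% for Ctsd, 15.9% for Cd63, 11.9% for Atp6v0c, 11.1% for Laptm4b, 7.68% for Ctsl and 5.13% for Glb1 occurred in transcripts of other genes. For Cd63 and Atp6v0c these were mainly pseudogene copies (Cd63-ps, Atp6v0c-ps1 and Atp6v0c-ps2). For Ctsd the other gene was Gm49369, and for Glb1 it was mainly Tmppe. RSEM shares reads of such stretches out by estimate. Ctsa, Grn, Asah1 and Lamp2 were not among the 8 members above 2%.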

How the data were processed

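Single-cell RNA-seq was analysed for 182 cells in 232 runs, with cells resequenced where depth was low. The authors made and deposited 2 kinds of value per gene and run with RSEM 1.2.19 against Gencode M4, namely expected counts and FPKM (fragments scaled to transcript length and sequencing depth). The genome build of the files is not given in the sources used here. For cells with several runs, their expected counts were added up and then rounded, and their FPKM values were averaged. Symbols and positions came from Gencode M21 (GRCm38), which matched 41674 of 42493 identifiers.

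Size factors followed the DESeq median-of-ratios method over the 862 genes counted in every cell (Python 3.11.15, numpy 2.4.6, scipy 1.17.1). TMM factors from edgeR 4.0.16 in R 4.3.3 and library size were alternatives. Genes averaging fewer than 5 counts per cell were left out of calls. Intervals were exact Poisson for levels and exact binomial for ratios, at 95%. With 1 chip per condition no test across conditions was made, and the ratio script was tested on simulated data. The 35 members, the pathway and marker lists and the tests were chosen with earlier results of these data known. Every member was named. Full values were given for members called in a comparison and for the 3 highest and 3 lowest ratios, and from other lists up to 3 called genes per comparison, by size. Members and genes named outside this rule are said to be so. A result that the rule would name among the other hydrolases is not reported here. The alternatives also included means or medians over cells, other count limits, the first run alone, deeper cells, near-identical pairs counted once and each cell left out. Alternatives added after the data were seen left out the 2 cells whose runs differ, left out the highest mock cell, or required an average of 100 counts. Sites in 3' UTRs and promoter motifs were read from Gencode M21 and RefSeq sequences.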

Additional observations from a re-analysis of the deposited data

How the results depend on the processing

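The ratios of median summed level kept their direction and stayed within the spread over cells under all alternatives that were run. Counts of called members that moved by more than 1.5 times, or whose limit or cells were changed, were as follows. With library size 5 members were lower after miR-294 (9 with size factors). With medians over cells 5 were higher after miR-294 and 4 lower after let-7, and Gusb turned from -1.20 to 1.02 in miR-294 over mock. Without a limit on counts 2 were higher after miR-294. At an average of 100 counts, 0 were lower in mock than in WT cells, 0 were higher and 4 lower after miR-294, and 0 were called in either direction after let-7. With the first run alone 4 were lower after let-7, and without the highest mock cell 1 was. At 1.5-fold 3 were higher and 14 lower after miR-294, and 12 were higher and 6 lower after let-7. Leaving out 1 cell at a time gave 14 to 19 members higher and 2 to 4 lower in mock than in WT cells, 1 to 2 higher and 6 to 9 lower after miR-294, and 3 to 6 higher and 1 to 4 lower after let-7. It moved the log2 ratio of Neu1 in mock over WT between -2.36 and 0.036, of Mcoln1 in the same comparison between -3.90 and 0.54, and of Mcoln1 in miR-294 over mock between -3.73 and 1.12, since single cells hold most of their counts. The causes of the other moves were not tested. At 2-fold and over the alternatives that gave a value for the gene, 14 of 18 calls in mock over WT were made every time. So were 4 of 10 in miR-294 over mock (Arsa, Lamp2, Laptm4b and Scarb2) and 2 of 6 in let-7 over mock (Laptm4b and Scarb2). For Arsa, Laptm4b and Scarb2 in these last comparisons, medians over cells were 0 and gave no ratio. Their calls therefore rest on 10 settings, where Lamp2 had 11. No paired analysis was possible because cells of different conditions share no replicate and the ratios come from no test. Depth limits the genes counted in few cells, and intervals cover counting error only.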
